A study of Rattus norvegicus with 12 samples.

Results

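Ndfip1 and Ndfip2 are paralogous membrane proteins that recruit and activate ubiquitin ligases of the NEDD4 family. On this array each gene is represented by 1 catalogue probe printed at 10 positions. The pair was taken by probe name, and the accession beside each name in the files matched Ndfip1 and Ndfip2 in the RefSeq gene table of rat assembly GRCr8. They are 2 of 38804 non-control probes, and 2 of the 50 catalogue probes, of which 30 matched a gene symbol. RNA came from the synovium, the membrane lining the joint, of male rats, with 4 arrays in each of 3 groups. Control rats had no arthritis. The CIA group had collagen-induced arthritis, a model in which immunisation with collagen inflames the joints. The BZXD group had the same arthritis and was treated with the herbal Bi Zhong Xiao Decoction. The labels give no strain, age, dose or time of sampling, and do not say whether the arrays of a group came from separate animals, so a p-value here measures only how these arrays vary, which may in part be technical.

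Both adaptors sit in the membranes of the Golgi and endosomes. Their cytoplasmic part carries proline-rich PY motifs that bind the WW domains of NEDD4-family ligases such as Nedd4, Nedd4l, Itch and Wwp2, which releases the ligase from its inactive fold and brings it to membrane-bound substrates. In T cells, Ndfip1 acts with Itch to limit the accumulation of JunB and the production of interleukin-2 and type 2 cytokines, and mice without Ndfip1 develop severe T-cell-driven inflammation. Ndfip2 is induced in activated T cells and overlaps with Ndfip1 in restraining them. Both are expressed well beyond the immune system, and Ndfip1 also limits iron uptake by directing the transporter Slc11a2 to degradation.

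The window around 1 transcript start of each gene is shown as background on the 2 genes. Each runs from 250 bases before to 50 bases after a transcript start on the plus strand of GRCr8, as RefSeq gives it, and capitals mark CG dinucleotides. The Ndfip1 window lies at chr18:30516775-30517074 and the Ndfip2 window at chr15:88446682-88446981.
Ndfip1: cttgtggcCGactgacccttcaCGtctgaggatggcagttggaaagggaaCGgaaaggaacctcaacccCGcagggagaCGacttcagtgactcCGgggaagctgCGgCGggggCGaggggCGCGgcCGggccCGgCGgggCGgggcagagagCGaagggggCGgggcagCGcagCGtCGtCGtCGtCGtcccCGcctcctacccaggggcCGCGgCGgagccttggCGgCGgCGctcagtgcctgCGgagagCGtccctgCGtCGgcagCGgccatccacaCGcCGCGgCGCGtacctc
Ndfip2: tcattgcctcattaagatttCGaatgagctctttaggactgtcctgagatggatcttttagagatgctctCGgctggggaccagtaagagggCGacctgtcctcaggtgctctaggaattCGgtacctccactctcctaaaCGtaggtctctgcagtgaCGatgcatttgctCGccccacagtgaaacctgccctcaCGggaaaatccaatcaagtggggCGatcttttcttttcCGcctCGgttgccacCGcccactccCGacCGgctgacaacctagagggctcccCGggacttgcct

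The Ndfip1 window held 40 CG dinucleotides and was 73.3% G or C. The Ndfip2 window held 15 and was 54.7% G or C. Over 33469 rat promoter windows of the same length the median was 7 CG dinucleotides and 51.7% G or C, and 96.8% of windows held fewer than that of Ndfip1 and 68.0% fewer than that of Ndfip2. On either strand, the GC box GGGCGG occurred 2 times in the Ndfip1 window and 1 time in the Ndfip2 window, and in 33.1% of all windows. The TATA box TATAAA occurred in neither (14.2% of all windows), and CCAAT 1 time in the Ndfip2 window and not in that of Ndfip1 (37.5% of all windows). The start used for Ndfip2 lies 52384 bases inside the span of the gene in the RefSeq table, against 94 for Ndfip1. A longer Ndfip2 transcript thus starts elsewhere, and the 2 windows are not like for like. These are descriptions of sequence, and no measurement of binding or methylation was made. Whether either window bears on the signal of its probe was not tested.

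Intensity differed between the groups as a whole. The 75th percentile of probe intensity, to which each array was scaled, was 54.3 to 69.6 on Control, 91.1 to 118 on CIA and 24.7 to 32.7 on BZXD arrays. On average 73.8% ± 5.98 of probes were well above background on a Control array (SD, n = 4), 75.8% ± 6.54 on a CIA array and 49.4% ± 4.10 on a BZXD array. The 4 arrays of a group shared 1 scan and no scan held 2 groups, so group and scan cannot be told apart in any comparison. On BZXD replicate 2 both members read higher than on the other BZXD arrays, and the BZXD results are therefore given with and without it. By Dixon's ratio, the gap to the nearest array over the group's range, it did not reach the 95% critical value for Ndfip1 (a ratio of 0.813) or Ndfip2 (0.613). By the 75th percentile and the share of probes well above background it lay near the other BZXD arrays. Its 75th percentile was the highest of the group, at 32.7 against 31.6 on replicate 3. Of its probes, 51.0% were well above background, against 43.6% to 53.1% on the others. Its share of spots marked as outliers, 3.31%, was the highest of any array. That share was 0.83%, 2.16% and 1.78% on BZXD replicates 1, 3 and 4, and at most 0.63% on Control and 1.76% on CIA arrays. Of its 10 spots for each gene, 0 were so marked for Ndfip1 and 1 for Ndfip2. Of 60 genes in 6 lists of NEDD4-family ligases, other PY adaptors, substrates, T-cell regulators and ubiquitin genes, 1 had a named probe, and of 37 markers in 9 lists of T cells, other leukocytes, fibroblasts, endothelium, muscle and fat, 0 had. The cell makeup of the tissue and the partners of the 2 adaptors were therefore not measured by name. In such bulk tissue, fewer cells of a type and less RNA per cell cannot be told apart.

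Ndfip1 was measured on every array: all 10 spots were well above background on each of the 12. Levels are log2 intensities minus the 75th percentile of the same array. In Control they were 1.22, 1.24, 0.91 and 1.03 on replicates 1 to 4. In CIA they were 1.44, 1.63, 0.88 and 1.12. In BZXD they were 0.076, 1.15, 0.066 and 0.27. The lowest 3 of the 12 arrays were all BZXD, while BZXD replicate 2 lay among the Control and CIA arrays. Within each group, replicate 2 was the highest and replicate 3 the lowest.

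**Figure D1:**
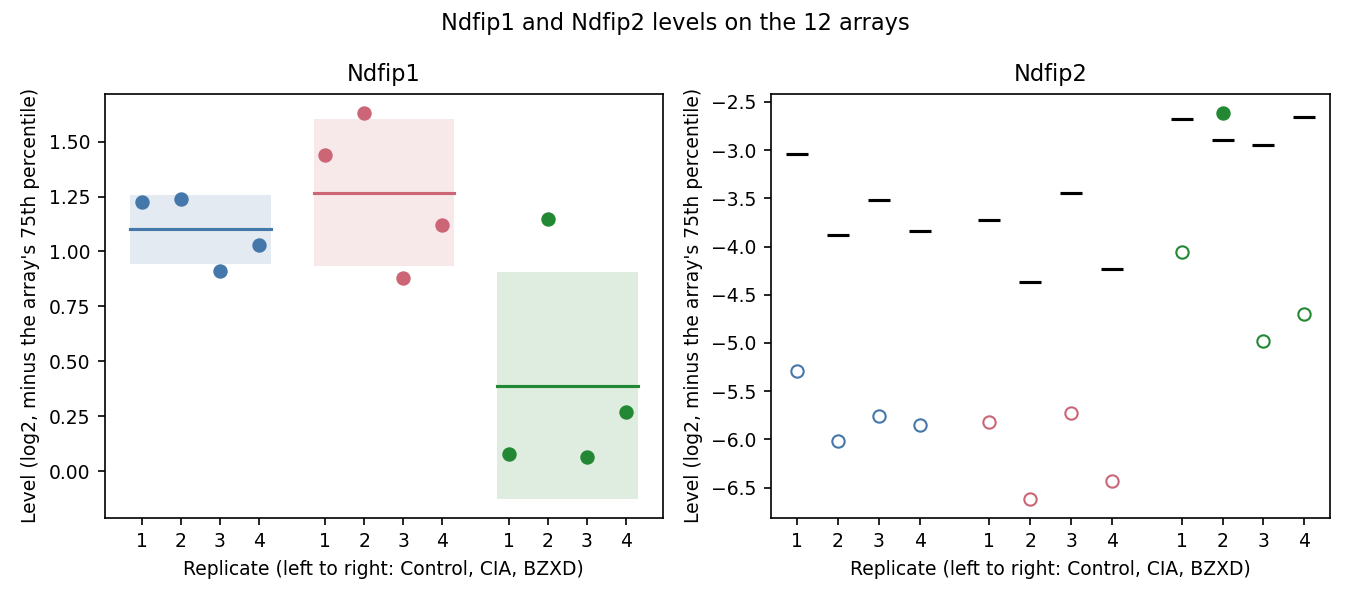
Levels of Ndfip1 (left) and Ndfip2 (right) on each array, in log2 intensity minus the array's 75th percentile; filled points are arrays where the probe was well above background and open points are not. For Ndfip1 lines and bands give group mean and SD (n = 4); for Ndfip2 black dashes give the lowest level among probes well above background on that array. Ndfip1 is low on 3 BZXD arrays, and Ndfip2 rises above the dash only on BZXD replicate 2, at -2.61 against -2.90.

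The unscaled signal showed the same 3 arrays at the bottom. The mean intensity of Ndfip1 (± SD, n = 4) was 139 ± 28.5 for Control, 265 ± 82.0 for CIA and 41.1 ± 21.3 for BZXD. The CIA arrays, 167 to 366, all lay above the Control arrays, 102 to 164, and the BZXD arrays, 26.0 to 72.6, all lay below both. The groups are thus fully separated before scaling, and the 75th percentile runs in the same order across them. After scaling only part of that separation is left.

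The 10 spots of a probe are repeats within 1 array and not samples. For Ndfip1 their SD on the log2 scale was 0.032 to 0.075 on Control, 0.040 to 0.087 on CIA and 0.12 to 0.18 on BZXD arrays. The SD between arrays of a group was 0.16, 0.33 and 0.51, or 0.11 in BZXD without replicate 2. The SE of an array's Ndfip1 level from its spots was at most 0.057, smaller than the distance from the 1.15 of BZXD replicate 2 to the 0.27 of the next BZXD array. The higher level on that array is therefore shared by its spots: they read 63.7 to 81.2, while the spots of the other 3 BZXD arrays read 21.1 to 39.0.

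**Figure D2:**
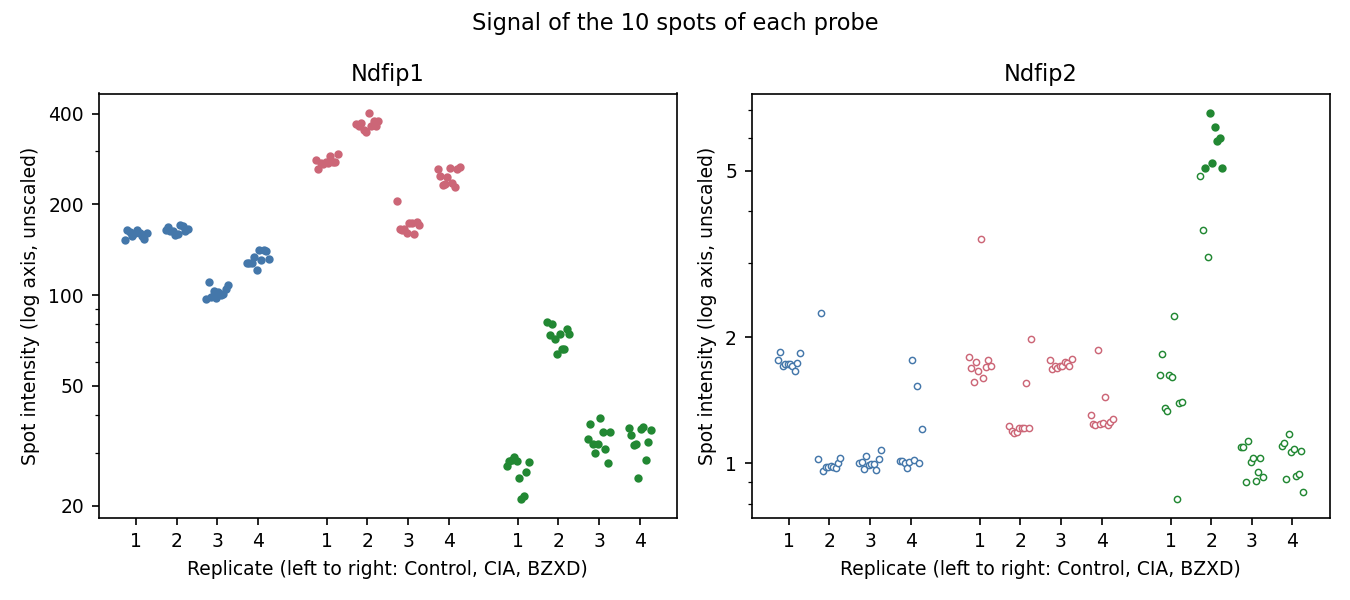
Intensity of each of the 10 spots of the Ndfip1 probe (left) and the Ndfip2 probe (right) on each array, before scaling, on log axes; filled points are spots well above background. Ndfip1 spots cluster tightly by array, from 63.7 to 81.2 on BZXD replicate 2, and Ndfip2 has filled spots on BZXD replicate 2 only, 7 of 10.

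The comparison of CIA with Control asks whether the adaptors differ in the arthritic joint. Ndfip1 averaged 1.27 ± 0.33 in CIA and 1.1 ± 0.16 in Control (SD, n = 4 each). The difference was 0.17 ± 0.17 on the log2 scale (SE), with a 95% interval of -0.23 to 0.56, that is 0.854-fold to 1.48-fold. It did not pass the threshold of an adjusted p under 0.05 (limma adjusted p = 0.539, exact two-sided permutation p = 0.40), in a fit where 9.37% of all tested probes were called. The groups overlapped: 1 CIA array lay within the Control range, 2 above it and 1 below. At each of the 10 spot positions the CIA mean was higher, by 0.060 to 0.38, but these positions share the same 8 arrays. Among all tested probes, 77.8% had a lower difference than Ndfip1, against a median of -0.081.

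The size of this difference depended on the scaling. Without scaling between arrays, Ndfip1 was 0.89 ± 0.25 higher in CIA (limma adjusted p = 0.0144), when the median of all probes was 0.65 higher. The scaling shifts all probes of an array alike, so the distance of Ndfip1 from the median, 0.25, is the same by construction. The order of the scaled levels was CIA, Control, BZXD, and the first and second in it did not differ beyond their spread.

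Setting BZXD against CIA asks whether arthritic rats given the decoction differed from those without it. Ndfip1 fell in BZXD: it averaged 0.39 ± 0.51 there against 1.27 ± 0.33 in CIA (SD, n = 4 each). The log2 difference was -0.88 ± 0.30 (SE), with a 95% interval of -1.56 to -0.20, and passed the threshold (limma adjusted p = 0.0262). In the same fit 69.9% of all tested probes were called, so a call is what most probes show. The exact two-sided permutation p was 0.0857, where the smallest that 4 against 4 arrays allow is 0.0286. Of the BZXD arrays, 3 lay below all CIA arrays and replicate 2 lay within their range.

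Without BZXD replicate 2 the fall was larger and its error smaller, at -1.13 ± 0.20 (limma adjusted p = 0.00115, exact two-sided permutation p = 0.0571, the smallest that 3 against 4 arrays allow). Since that array was the only BZXD array within the CIA range, leaving it out fixed in advance the larger difference, the smaller error and the lack of overlap. The other arrays carry the call too. It was not past the threshold without CIA replicate 1 (adjusted p = 0.0676) or 2 (0.0738) or without BZXD replicate 1 (0.0641), 3 (0.0677) or 4 (0.0607). With scaling to the median of each array in place of the 75th percentile, the difference was -0.53 ± 0.32 (limma adjusted p = 0.173). Median scaling with BZXD replicate 2 left out gave -0.80 ± 0.22 (limma adjusted p = 0.0107).

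Setting BZXD against Control asks whether treated arthritic rats differed from normal ones, and shares the BZXD arrays with the comparison before it. Ndfip1 averaged 0.39 ± 0.51 in BZXD and 1.1 ± 0.16 in Control (SD, n = 4 each). The log2 difference was -0.71 ± 0.27 (SE), with a 95% interval of -1.32 to -0.098 (limma adjusted p = 0.0393, exact two-sided permutation p = 0.0857), where 72.7% of all tested probes were called. Again 3 BZXD arrays lay below all Control arrays and replicate 2 within their range. Without replicate 2, again the only one of its group within the other's range, the difference was -0.96 ± 0.14 (limma adjusted p = 0.000345, exact two-sided permutation p = 0.0571). Without any other single array of the 8, named as Control replicates 1 to 4 and BZXD replicates 1, 3 and 4, the adjusted p was 0.0549 to 0.0962. Median scaling gave -0.25 ± 0.29 (limma adjusted p = 0.467), and with BZXD replicate 2 left out as well -0.53 ± 0.17 (limma adjusted p = 0.0208).

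**Figure D3:**
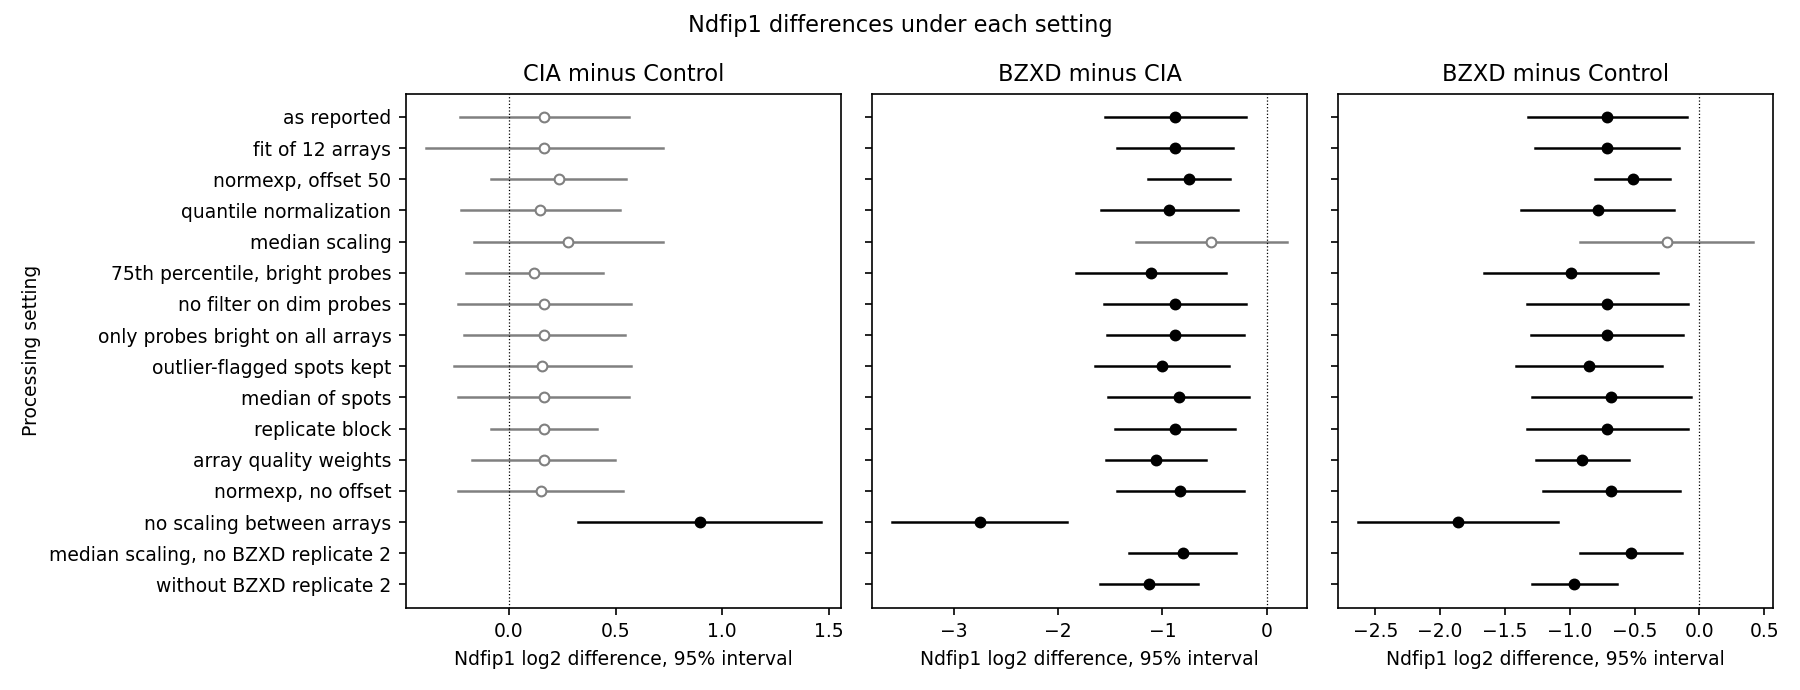
Log2 difference of Ndfip1 in each comparison with its 95% interval under each processing setting; filled black points passed an adjusted p under 0.05 and open grey points did not. The BZXD differences lie below 0 under every setting drawn and lose the call under median scaling of all arrays, at -0.53 and -0.25. CIA minus Control passes only without scaling, at 0.89. Of the fits that leave out 1 array, only that without BZXD replicate 2 is drawn. Over all of them the call was lost in 5 of 8 for BZXD minus CIA and 7 of 8 for BZXD minus Control.

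The fall of Ndfip1 was set beside the shift of the arrays as a whole. In BZXD against CIA the median difference of all tested probes was -0.60, and 43.3% of probes differed more negatively than Ndfip1. In BZXD against Control the median was -0.69, close to the -0.71 of Ndfip1. Probes well above background on all 12 arrays, as Ndfip1 is, had a median difference of 0.13 in both comparisons, and 27.7% and 31.0% of these 12219 probes were lower than Ndfip1. Probes that fell below background in BZXD are left out of that set by its definition, so the lower place of Ndfip1 within it is a description only. The part of the dimmer BZXD arrays in this fall was not tested.

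**Figure D4:**
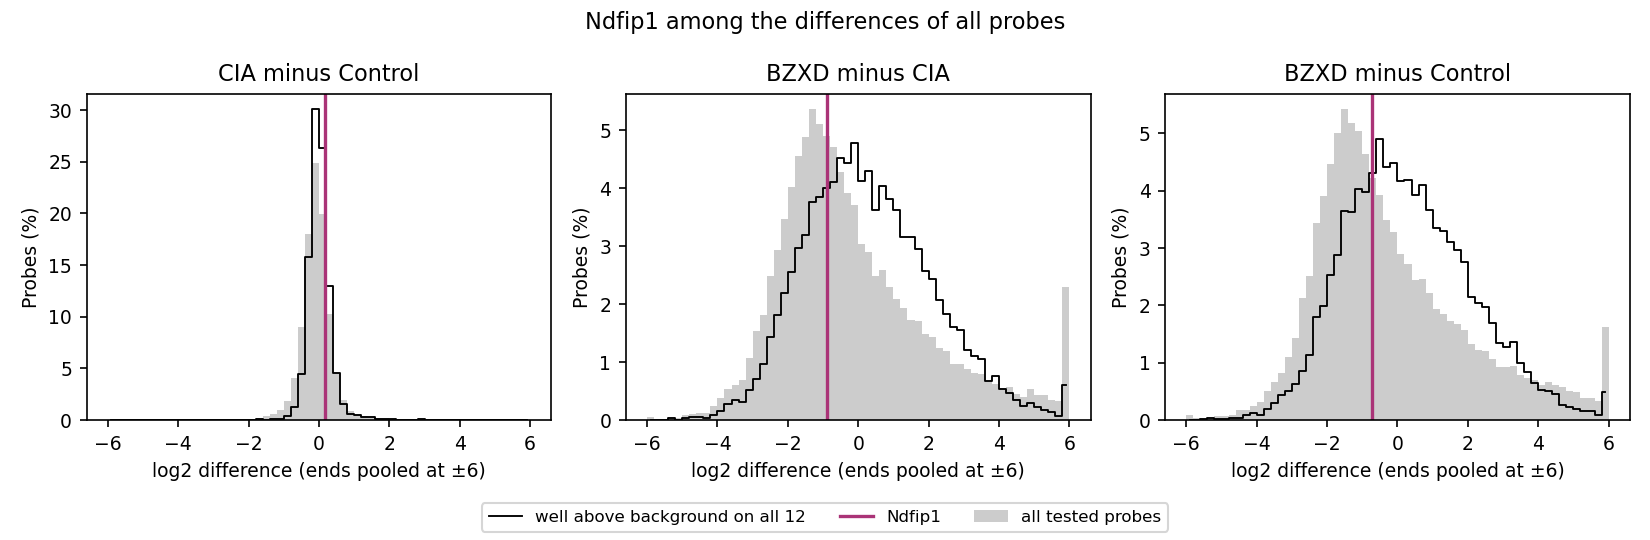
Distribution of log2 differences over all tested probes (grey bars) and over 12219 of them that every array measured above background (black line), as a percentage of probes per bin of 0.2, with the ends pooled; the vertical line is Ndfip1. In both BZXD comparisons Ndfip1 lies near the middle of all tested probes, with 43.3% and 49.6% of them lower. The tested probes can include ones measured only on Control or CIA arrays.

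The pattern of Ndfip1 over the BZXD arrays was shared by other probes. At 13808 of 29449 tested probes with a value on every array, the other 3 BZXD arrays lay below all 8 Control and CIA arrays. BZXD replicate 2 lay within the range of those 8 arrays, as it did for Ndfip1, at 900 of them, or 6.52%. It lay below the range with the other BZXD arrays at 12238 and above it at 670. The level of Ndfip1 on that array is therefore one of a minority that did not follow the rest of its group.

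Ndfip2 was near background on 11 of the 12 arrays. None of its 110 spots there was well above background. Its intensity there was 1.0 to 1.81, and the lowest of any probe well above background was 3.86 to 8.35 by array. Over all Ndfip2 spots the median error was 99.6% of the intensity. Signal minus local background was negative at 24 of 40 Control spots, 17 of 40 CIA spots and 22 of 30 spots on BZXD replicates 1, 3 and 4. The intensity was positive even at those spots, so it is not a measured level. On BZXD replicate 2 the probe was well above background, at an intensity of 5.35, with 7 of 10 spots passing. The Control levels on replicates 1 to 4 were -5.29, -6.02, -5.76 and -5.85 on the scaled log2 scale, and the CIA levels were -5.82, -6.61, -5.73 and -6.43. The BZXD levels were -4.06, -2.61, -4.98 and -4.70. The BZXD levels thus lay above all others, but 3 of these 4 and all Control and CIA levels are signals near background divided by a different scaling intensity.

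Negative-control spots, designed to match no transcript, gave a measure of that background. After local background subtraction, Ndfip2 averaged -1.63 to 0.65 on the 11 arrays, and on 7 of them it lay between the 5th and 95th percentiles of 153 negative-control spots. On Control replicates 2 and 3 and CIA replicates 2 and 4 it lay above the 95th percentile, at means of 0.148, 0.165, 0.0644 and 0.653. The percentiles are of single spots, which spread more than means over spots, so lying between them does not show absence of signal. On all 11 arrays Ndfip2 lay above the negative-control median, with 59.5% to 98.7% of the negative-control spots below it. On BZXD replicate 2 it averaged 5.45 ± 1.01 over 9 unflagged spots (SD), above all 153 negative-control spots, the highest of which was 4.68. By the same measure, Ndfip1 had 0, 1 and 2 of 10 spots above all negative-control spots on Control replicate 1, CIA replicate 3 and CIA replicate 4. On each other array it had 10 of 10. On those 3 arrays the 95th percentile of the negative-control spots was 1.31, 17.5 and 0.507, below every Ndfip1 spot.

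**Figure D5:**
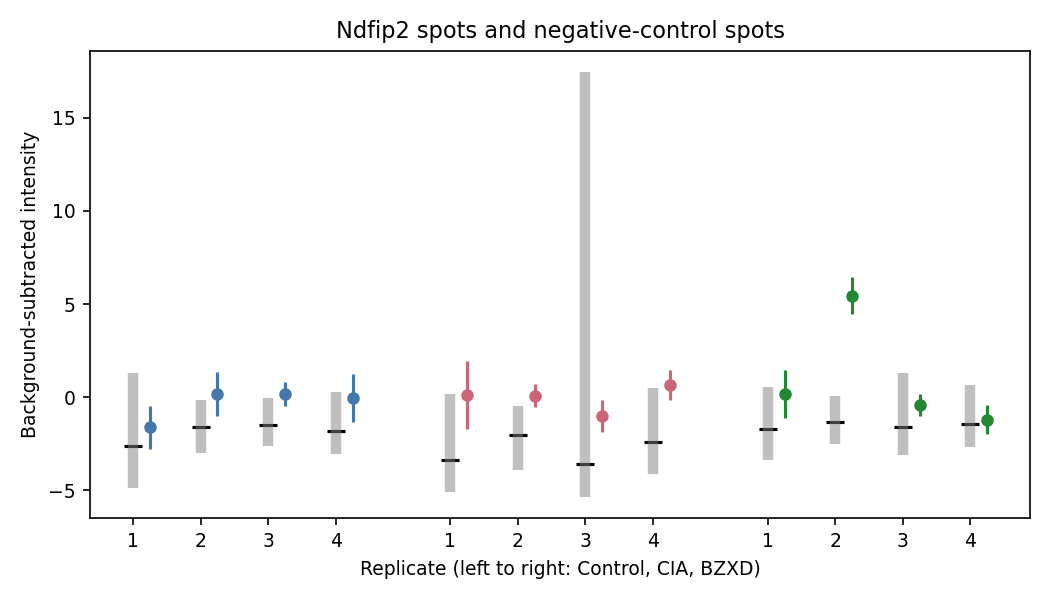
Background-subtracted intensity of Ndfip2 (coloured points, mean and SD over unflagged spots) beside the negative-control spots of the same array (grey bar, 5th to 95th percentile; dash, median). On BZXD replicate 2 Ndfip2 stands at 5.45, above all negative-control spots, and on the other 11 arrays it lies between -1.63 and 0.65.

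No fold can be given for Ndfip2 in any comparison. In CIA against Control it was measured on no array. For a bound, the lowest level among probes well above background was averaged over the arrays of the other group. It was -3.94 in CIA and -3.57 in Control. The BZXD mean of -4.09 was lower than both, so the bound was under 1. The fitted differences on the scaled signal were -0.42 ± 0.24 for CIA minus Control (limma adjusted p = 0.299), 2.06 ± 0.50 for BZXD minus CIA (adjusted p = 0.00594) and 1.64 ± 0.48 for BZXD minus Control (adjusted p = 0.0150). These come from a fit without the filter on dim probes, in which 4.9%, 66.1% and 67.1% of probes were called. Without BZXD replicate 2, when Ndfip2 was measured on no array, the BZXD differences still passed, at 1.57 and 1.15. Without scaling they were 0.18 (limma adjusted p = 0.747) and 0.49 (adjusted p = 0.410). With Ndfip2 well above background on 1 array only, these fitted values are not a measured rise of Ndfip2.

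Detection on a single array was not particular to Ndfip2. Of 1582 probes well above background on exactly 1 of the 12 arrays, 483, or 30.5%, were so on BZXD replicate 2, the highest number for any array. The next were CIA replicate 2 with 313 and CIA replicate 4 with 264, and BZXD replicates 1, 3 and 4 had 13, 89 and 26. Ndfip2 on BZXD replicate 2 rests on that array alone, and no other array of the group repeated it. BZXD replicate 2 is thus the array on which both paralogs were highest within their group.

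Among the 17 named genes that passed the filter on dim probes, Ndfip1 had the median difference in both BZXD comparisons. In BZXD against CIA, 3 of the 17 rose, 9 fell and 5 did not pass, and in BZXD against Control the numbers were the same, where 69.9% and 72.7% of all tested probes were called. In CIA against Control 1 rose, 3 fell and 13 did not pass, where 9.37% of all tested probes were called. Nothing is read from these counts about the named genes. The 1 listed ubiquitin gene was Trim2, a ubiquitin ligase of the TRIM family best known in neurons. It was well above background on 3 of 4 Control, 4 of 4 CIA and 0 of 4 BZXD arrays, at levels of -3.39 to -3.16 in Control, -3.43 to -3.12 in CIA and -4.98 to -4.48 in BZXD. Its fitted difference was 0.0095 ± 0.098 for CIA minus Control (limma adjusted p = 0.958) and -1.34 ± 0.18 for BZXD minus CIA (adjusted p = 0.000198), with no fold that can be bounded. On BZXD arrays the lowest level among probes well above background was -2.95 to -2.66, above all Control and CIA levels of Trim2. An unchanged Trim2 would thus also have been missed there, and the fitted value is not a measured fall.

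Likeness to Ndfip1 was described by Pearson's r over the 12 arrays, which share groups, scans and scaling. Of the named genes the most alike were Med16, a subunit of the Mediator complex (r = 0.89), Fgf2, a fibroblast growth factor (0.86), and Dlg4, a synaptic scaffold (0.83). The least alike were Ldha, a lactate dehydrogenase subunit (-0.73), Slc28a2, a nucleoside transporter (-0.65), and Ppp2r2b, a phosphatase subunit (-0.45). These values include the differences between groups, and many include background signal. Slc28a2 was well above background on all 12 arrays, Dlg4 and Ppp2r2b on 11, Med16 and Fgf2 on 9 and Ldha on 4, so most of the values behind the r of Ldha are not measured levels.

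With each group centred on its mean the highest were Pop7, a ribonuclease P subunit (0.87), Dlg4 (0.85) and Ptk2b, a tyrosine kinase (0.79). The lowest were Trim2 (-0.84), Ppp2r2b (-0.77) and P2rx2, an ATP-gated channel (0.096). Pop7 was well above background on all 12 arrays, P2rx2 on 8, Trim2 on 7 and Ptk2b on 6. Trim2 was so on no BZXD array, the group in which Ndfip1 varied most, so its centred r there rests on background signal and is not read.

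The order did not hold without BZXD replicate 2. Over the other 11 arrays the most alike were Cyp2e1, a cytochrome P450 (0.96), Map2, a microtubule-associated protein (0.90), and Med16 (0.89). Cyp2e1 and Map2, and Pdk3 below, are named after their values were seen. Each was well above background on 8 of the 12 arrays, so part of the values behind its r is background signal. After centring, the highest were Cyp2e1 (0.82), up from 0.14 with all arrays, Pop7 (0.80) and Pdk3, a pyruvate dehydrogenase kinase (0.79). Dlg4 and Ptk2b were at 0.46 and 0.42. Med16 went from 0.76 to -0.10, Fgf2 from 0.63 to -0.35 and Ppp2r2b from -0.77 to 0.22. The centred likeness of these 3 genes therefore rested on that 1 array, while that of Pop7 was near its value with all arrays. Over all 29448 probes with a value on all 12 arrays, 535, or 1.82%, had r over 0.9 with Ndfip1.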

How the data were processed

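One-colour Cy3 arrays of 12 synovial samples were analysed; per the labels' protocols, RNA cleared of rRNA was labelled by random priming. Per the file headers, the authors' intensity values come from Agilent Feature Extraction 11.0.1.1, with local background subtracted; 0/1 marks per spot (other values) are deposited beside them. The deposited log2 value table holds neither probe, so it was not used for them.

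Intensities were put on the log2 scale, spots averaged without outlier-marked ones, and each array's 75th percentile over non-control probes subtracted. A probe counted as well above background on an array where over 50% of its unmarked spots were, and was tested if so on at least 4 of 12 arrays (31288 of 38804). Each comparison was a limma fit (version 3.58.1, R 4.3.3) of its 8 arrays with Benjamini-Hochberg adjusted p over all tested probes, two-sided, threshold 0.05. The 8-array fit was chosen because earlier results showed a wider spread in BZXD. Ndfip2 failed the filter and was fitted without it. Single values also had an exact permutation test (scipy 1.17.1). Simulated data with known changes were used to test the fit. Their noise was drawn independently for each probe, without shifts shared within an array, so they say nothing of such shifts. With 4 arrays per group, precision is limited by their number. Members, lists and tests were chosen with earlier results of these data known. The rule for named genes took both members, any listed gene with a named probe, and the 3 most and least alike named genes.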

Additional observations from a re-analysis of the deposited data

How the results depend on the processing

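Leaving out 1 array in turn gave -1.13 to -0.76 for Ndfip1 in BZXD minus CIA, past the threshold in 3 of 8 fits, and -0.96 to -0.60 in BZXD minus Control, past it in 1 of 8. Scaling to the median gave -0.53 and -0.25, neither past it. Without scaling, Ndfip1 in CIA minus Control passed at 0.89. The direction of Ndfip1 was the same in every setting run. For Ndfip2, CIA minus Control was -0.37 and past the threshold under normexp with an offset of 50, and turned to 0.091 with quantile normalization, 0.019 under normexp with no offset and 0.31 without scaling. BZXD minus CIA was 1.45 with quantile normalization and 0.18 without scaling, and BZXD minus Control 0.49 without scaling, none past the threshold. The cause was not tested. Over all settings the limma adjusted p for Ndfip1 was 0.0144 to 0.892 for CIA minus Control, 7.39e-05 to 0.173 for BZXD minus CIA and 0.000345 to 0.467 for BZXD minus Control.

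Probes called for CIA minus Control were 2933, and 4 in a fit of 12 arrays, 18037 under normexp with an offset, 124 with no offset, 1019 with median scaling, 1903 with no filter, 4630 with array weights, 20850 without scaling, 66 to 1845 with 1 array left out, and 1495 where only probes measured on all arrays were tested. The counts of 21843 and 22716 for BZXD minus CIA and minus Control fell to 8410 and 8516 with that last filter. Higher calls were 7971 of the 21843 and 7950 of the 22716; under normexp with an offset they were 19839 of 25917 and 18360 of 24747, and with median scaling 9217 of 20461 and 9623 of 20993. For CIA minus Control they were 717 of 2933, 607 of 1019 with median scaling, 1107 of 2831 with quantile normalization and all but 23 of 124 under normexp with no offset. Without scaling, higher calls were 20789 of 20850, 3284 of 26313 and 4656 of 25194 in the 3 comparisons, and under normexp with no offset 8426 of 17026 and 8733 of 18267 in those with BZXD.

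The replicate numbers match the array numbers on a slide in the file headers. Deviations of same-numbered arrays correlated at -0.15 to 0.56, not all over 0.1, so the number is not taken as a pairing. These correlations run over the tested probes as a whole. For Ndfip1 itself, replicate 2 was the highest and replicate 3 the lowest in every group. The part of array position in this was not tested. With the replicate block, 1809 probes were called for CIA minus Control, where Ndfip1 stood at 0.17 ± 0.096 (SE, limma adjusted p = 0.269). In the BZXD comparisons with that block, Ndfip1 stood at -0.88 (limma adjusted p = 0.0175) and -0.71 (adjusted p = 0.0458). The slide could not be a block, since each scan holds 1 group. The ratio of Ndfip2 to Ndfip1 was not compared, as Ndfip2 was measured on no Control or CIA array. Normexp with no offset, no scaling, and median scaling without BZXD replicate 2 were chosen after seeing the data.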
